A study of Mus musculus with 14 samples.

Results

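The nuclear genes of respiratory complexes II, III, IV and V were followed in HL-1, a cardiomyocyte line derived from mouse atrium, after transfection of siRNA against the long non-coding RNA Airn. A gene was included when its symbol in the deposited table was Sdha, Sdhb, Sdhc or Sdhd, or began with Uqcr, Cox5 to Cox8 or Atp5. The 6 isoform genes Cox6a1, Cox6a2, Cox7a1, Cox7a2, Cox8a and Cox8b were left out. This gave 34 of the 20193 genes in the table: 4 of complex II, 6 of complex III, 9 of complex IV and 15 of complex V. All 34 were measured by 1 transcript cluster each, the set of probes that the array assigns to a gene, and no filter on signal was applied. They lie on 16 chromosomes in the RefSeq gene table (GRCm38.p6).

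The place of each transcript cluster among the others was checked, because many of the 34 genes have processed copies elsewhere in the mouse genome. Cluster numbers run by chromosome, and for 30 genes most of the 50 clusters with the nearest numbers were of genes on the gene's own chromosome. For Atp5l, Cox7a2l, Cox6c and Atp5f1 none of the 50 was. The Atp5l cluster lies among genes of chromosome 5 (49 of 50) although the gene is on chromosome 9, the Cox7a2l and Cox6c clusters among genes of chromosome 12 (49 of 50 each) although the genes are on chromosomes 17 and 15, and the Atp5f1 cluster among genes of chromosome 11 (48 of 50) although the gene is on chromosome 3. Which locus the probes of these 4 clusters measure was not tested.

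Complexes II, III and IV pass electrons from succinate and ubiquinol through cytochrome c to oxygen. Complexes III and IV pump protons across the inner mitochondrial membrane as they do so, and complex V, the ATP synthase, uses the proton gradient to make ATP. Heart muscle depends on this process for contraction and is rich in mitochondria. Complex II is built from nuclear genes alone, whereas complexes III, IV and V also hold subunits encoded by mitochondrial DNA. The genes followed here are part of the nuclear share. Cyc1 of complex III and Cox4i1 of complex IV fall outside the symbol rule. Some subunit genes that the rule would take, such as Uqcrb and Uqcrc2 of complex III, were not found under those symbols.

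There were 14 Affymetrix arrays in 3 groups: siAirn-001.1 (4 arrays), siAirn-001.2 (4 arrays) and siScramble (6 arrays). All cells were HL-1, grew in Claycomb medium with norepinephrine and received siRNA at 10 nM with the lipid reagent RNAiMax, so the siScramble cells were transfected too. The labels speak of biological replicates without saying whether each was a separate culture, and p-values measure the spread between these arrays. How siAirn-001.1 and siAirn-001.2 differ, and how long after transfection RNA was taken, is not stated in the labels. Values are log2 expression after the authors' normalisation, and a change is a difference of group means on that scale. A gene was called when its adjusted p in limma, after Benjamini-Hochberg adjustment over all 20193 genes of a contrast, was under 0.05. Levels of different genes are not compared, because probes differ in brightness.

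The labelled identity of the cells and the targeted RNA were checked first. Of 10 heart muscle markers, 9 were on the table, and their mean per array was 12.36 to 12.59 in siAirn-001.1, 12.13 to 12.34 in siAirn-001.2 and 12.09 to 12.36 in siScramble. The marker Myh6 was not in the table. Means of the 6 fibroblast markers lay between 6.57 and 7.29 in siAirn-001.1, 6.68 and 7.42 in siAirn-001.2, and 6.67 and 7.56 in siScramble. The 3 smooth muscle markers had higher means, 9.27 to 9.34 in siAirn-001.1, 9.19 to 9.45 in siAirn-001.2 and 9.14 to 9.43 in siScramble. Of these, Cnn1 had group means of 10.91, 11.01 and 11.11 in the same order. Since probes differ in brightness, the lists are not ranked by these levels. Airn itself was at 93.5%, 89.2%, 48.4% and 48.3% of its siScramble mean across the 4 siAirn-001.1 arrays in order. Across the 4 siAirn-001.2 arrays it was at 96.2%, 80.5%, 41.4% and 45.5%, and the siScramble arrays spanned 86.8% to 113%. The Airn signal therefore lay within the siScramble range in 3 arrays labelled siAirn, and every siAirn value below is that of arrays so labelled. The mean log2 change of Airn was -0.64 ± 0.19 (SE), with an exact two-sided permutation p of 0.0167 over all 8 siAirn arrays and a limma adjusted p of 0.0754. Arrays of siAirn-001.1 and siAirn-001.2 with the same number deviated together from their group means. Both tests take the 8 arrays as independent, so these p-values may be too small. The siScramble arrays 5 and 6 had higher values of several members than siScramble arrays 1 to 4, and counts are also given without that pair. In their deviations across all genes, siScramble arrays 5 and 6 were the controls most like arrays 1 and 2 of both siAirn groups. Counts without the pair therefore leave siAirn arrays 1 and 2 without those controls.

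Of the 34 genes, 8 rose in the mean of both reagents over siScramble and 0 fell. They were Uqcrfs1, Uqcrh and Uqcr11 of complex III, Cox5b and Cox6b1 of complex IV, and Atp5g1, Atp5k and Atp5l of complex V. Among all genes, 2.15% were called higher and 1.97% lower in this contrast, against 23.5% of the 34 called higher. The fit takes all siAirn arrays as independent, although same-numbered arrays of the reagents deviated together, so p-values of this contrast may be too small. Without the 4 genes whose clusters lie among those of another chromosome, 7 of 30 were called, Atp5l being the 1 lost. The called changes were small, from 0.21 to 0.45 on the log2 scale, or 15.4% to 36.5% in signal. By complex, 0 of 4 were called in complex II, 3 of 6 in complex III, 2 of 9 in complex IV and 3 of 15 in complex V. The median change was 0.09 over the 34 genes, against -0.00 over all genes. In all, 32 of the 34 had a change above 0, as did 48.1% of all genes. Medians were 0.10 in complex II, 0.26 in complex III, 0.08 in complex IV and 0.09 in complex V.

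The 8 calls differed in how firmly they held. Cox5b, Cox6b1, Uqcrfs1 and Uqcrh stayed past the threshold in all 14 limma fits that left out 1 array, with adjusted p-values of at most 0.0188, 0.0463, 0.0062 and 0.0486. Atp5g1 was lost when siScramble array 3 or array 5 was left out (limma adjusted p 0.0503 and 0.0505). Atp5k was lost in 10 of the 14 fits (limma adjusted p up to 0.104), Atp5l in 9 (up to 0.119) and Uqcr11 in 11 (up to 0.127). Atp5k held without array 3 of either siAirn group or siScramble array 2 or 6. Atp5l held without siAirn-001.1 array 3 or 4, siAirn-001.2 array 3, or siScramble array 5 or 6, and Uqcr11 without siAirn-001.1 array 1 or siAirn-001.2 array 2 or 3. The number of called genes was 5 without siAirn-001.1 array 2, siAirn-001.2 array 1, siAirn-001.2 array 4, siScramble array 1 or siScramble array 4, and 4 without siScramble array 3. It was 11 without siAirn-001.2 array 3 and 7 without siScramble arrays 5 and 6.

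**Figure D1:**
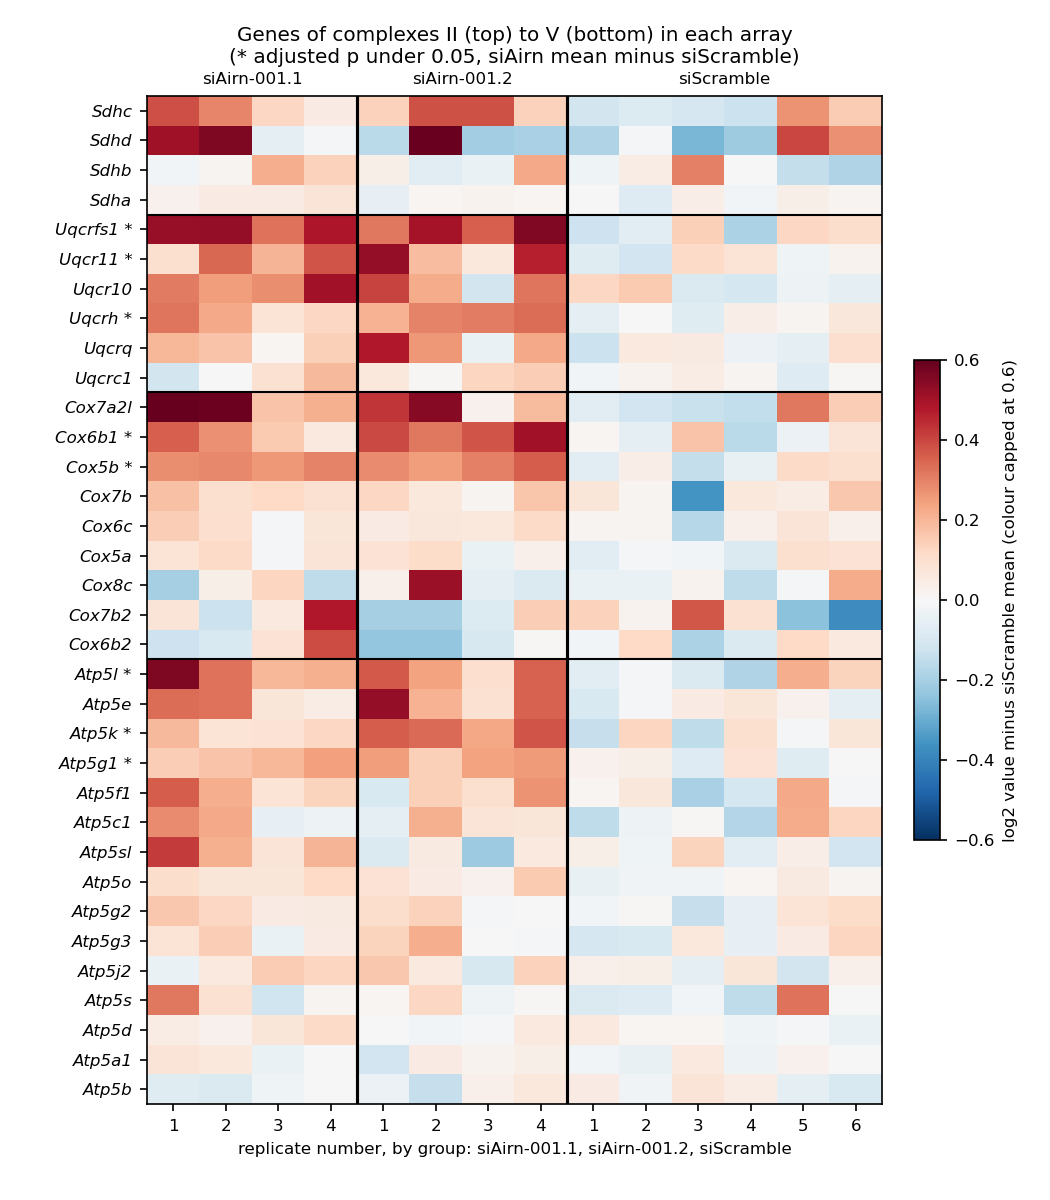
Each row is 1 of the 34 genes, grouped by complex, and each column 1 array; colour is the log2 value minus the siScramble mean of that gene, capped at 0.6 either way, and a star marks the 8 called genes. Uqcrfs1 and Cox5b are red in all 8 siAirn arrays, whereas Sdha, Atp5a1 and Atp5b stay near white and Sdhd is red in arrays 1 and 2 of siAirn-001.1, in array 2 of siAirn-001.2 and in siScramble arrays 5 and 6.

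Promoters are shown for 6 of the called genes, because these include the 4 genes whose calls held in every fit with 1 array left out and show the range of motif content. RefSeq (GRCm38.p6) gave a promoter for 29 of the 34 genes, each from 250 bases before to 50 bases after a gene's start, and the 250 bases before the start are printed 5′ to 3′ on the gene's strand. Capitals mark exact matches on either strand to short motifs of factors known to act at genes of respiratory subunits: NRF1 (GCATGCGC), the ETS motif of GABP (CCGGAAG), YY1 (AAGATGGC) and ERR (TGACCTT). The first 3 genes hold a match, which reads CTTCCGG where the GABP motif lies on the other strand, and the last 3 hold none in these windows.
Uqcrh, chr4:116075071-116075320, minus strand: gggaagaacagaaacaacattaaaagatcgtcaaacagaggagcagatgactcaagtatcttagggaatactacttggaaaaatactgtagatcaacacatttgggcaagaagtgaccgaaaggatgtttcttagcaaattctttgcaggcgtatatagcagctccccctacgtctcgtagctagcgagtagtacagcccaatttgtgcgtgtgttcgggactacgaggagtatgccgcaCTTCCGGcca
Cox6b1, chr7:30626115-30626364, minus strand: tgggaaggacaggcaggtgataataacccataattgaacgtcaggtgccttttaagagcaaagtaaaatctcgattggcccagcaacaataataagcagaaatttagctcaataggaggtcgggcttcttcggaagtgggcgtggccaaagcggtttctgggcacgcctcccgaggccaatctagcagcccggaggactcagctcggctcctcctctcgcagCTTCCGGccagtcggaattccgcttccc
Atp5k, chr5:108434400-108434649, minus strand: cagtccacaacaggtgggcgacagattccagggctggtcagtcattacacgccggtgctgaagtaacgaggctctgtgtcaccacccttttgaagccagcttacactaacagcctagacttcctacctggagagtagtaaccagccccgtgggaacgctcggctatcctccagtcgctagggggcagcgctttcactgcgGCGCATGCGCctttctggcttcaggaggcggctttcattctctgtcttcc
Uqcrfs1, chr13:30545317-30545566, minus strand: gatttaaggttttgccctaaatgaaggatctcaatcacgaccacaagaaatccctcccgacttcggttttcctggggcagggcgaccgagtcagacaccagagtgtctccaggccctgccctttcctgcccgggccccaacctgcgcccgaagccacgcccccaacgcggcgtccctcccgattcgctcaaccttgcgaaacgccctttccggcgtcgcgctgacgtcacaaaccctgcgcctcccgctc
Cox5b, chr1:36691237-36691486, plus strand: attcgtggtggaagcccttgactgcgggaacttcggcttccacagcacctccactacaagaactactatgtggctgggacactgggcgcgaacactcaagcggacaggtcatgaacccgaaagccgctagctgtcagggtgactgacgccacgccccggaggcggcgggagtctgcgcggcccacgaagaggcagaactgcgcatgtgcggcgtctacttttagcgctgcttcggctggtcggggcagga
Atp5g1, chr11:96075632-96075881, minus strand: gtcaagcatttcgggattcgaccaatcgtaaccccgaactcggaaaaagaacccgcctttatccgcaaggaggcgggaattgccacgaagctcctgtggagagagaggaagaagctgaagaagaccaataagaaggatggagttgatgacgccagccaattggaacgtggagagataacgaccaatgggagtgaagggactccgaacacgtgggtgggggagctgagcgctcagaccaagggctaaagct

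In Uqcrh the GABP match began 10 bases before the start, and in Cox6b1 28 bases before it. Atp5k carried the NRF1 core on both strands, overlapping in 1 palindrome that began 50 bases before the start, and matches to GABP and ERR in the 50 bases after the start, which are not printed. A match to the NRF1 core stood in the 300 bases of 6 of the 29 genes (20.7%), against 3.05% of the 27025 genes with a promoter in RefSeq. The GABP motif stood in 8 of 29 (27.6%), against 9.93%, ERR in 5 (17.2%), against 5.38%, and YY1 in 3 (10.3%), against 3.19%. At least 1 of the 4 motifs was present in 14 of 29 (48.3%), against 19.7% of all genes. The promoters of the 29 genes also held more CG dinucleotides, a median of 19 against 7 over all promoters, and were 56% G and C, against 52.7%; the part of composition in these shares was not tested. Among the 8 called genes the GABP motif was found in 5, and among the 21 others with a promoter in 3. For NRF1 the counts were 3 of 8 and 3 of 21, and for ERR 2 of 8 and 3 of 21. YY1 matches were in 0 of the 8 and in 3 of the 21. In these 29 genes no match to one motif overlapped a match to another.

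Complex II, succinate dehydrogenase, had 0 of 4 genes called with either reagent or in their mean, and 1, Sdhc, at an unadjusted p under 0.05 in limma, as were 15.8% of all genes in the mean contrast. Sdha encodes the flavoprotein that oxidises succinate. Its log2 level was 11.84, 11.87, 11.87 and 11.89 in siAirn-001.1 arrays 1 to 4 and 11.77, 11.83, 11.84 and 11.83 in siAirn-001.2 arrays 1 to 4, against a lowest of 11.74, a median of 11.83 and a highest of 11.86 in siScramble. The groups overlapped, and the mean change was 0.02 ± 0.04 (SE; limma adjusted p = 0.918). Sdhc, which encodes a membrane anchor with haem and ubiquinone sites, was at 12.27, 12.18, 12.01 and 11.94 in siAirn-001.1 and at 12.02, 12.26, 12.27 and 12.02 in siAirn-001.2. In siScramble its lowest value was 11.76, the median 11.79 and the highest 12.15. All 8 siAirn arrays lay above the siScramble mean and 4 above the highest siScramble array, and the mean change of 0.24 ± 0.08 (SE) was not called (limma adjusted p = 0.12), although it passed with array weights (0.29, limma adjusted p = 0.0174).

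Sdhd, the other membrane anchor, had the widest spread within groups of the 34 genes, a pooled SD of 0.33 on the log2 scale against a median of 0.12. It was at 11.74, 11.79, 11.18 and 11.22 in siAirn-001.1, at 11.07, 11.83, 11.03 and 11.04 in siAirn-001.2, and between 10.96 and 11.64 in siScramble, with a median of 11.14. High values stood in arrays of all 3 groups, including siScramble arrays 5 and 6, and the groups overlapped. The mean change was 0.13 ± 0.15 (SE; limma adjusted p = 0.84). Sdhb, the iron-sulfur subunit, ranged from 10.48 to 10.72 in siAirn-001.1, from 10.43 to 10.72 in siAirn-001.2 and from 10.32 to 10.80 in siScramble.

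Complex III, the cytochrome bc1 complex, had the highest median change of the 4 complexes. Of its 6 genes followed here, 5 had an unadjusted p under 0.05 in the mean contrast in limma, as did 15.8% of all genes. Uqcrfs1 encodes the Rieske iron-sulfur protein, which takes electrons from ubiquinol. Its log2 level was 9.36, 9.37, 9.16 and 9.32 in siAirn-001.1 arrays 1 to 4 and 9.15, 9.34, 9.20 and 9.39 in siAirn-001.2 arrays 1 to 4, against a lowest of 8.65, a median of 8.86 and a highest of 8.98 in siScramble. All 8 siAirn arrays lay above all 6 siScramble arrays. That separation, with every siAirn array above every siScramble array, held for 4 of the 34 genes (Uqcrfs1, Uqcrh, Cox5b and Atp5g1) and for 0.891% of all genes. The mean change of Uqcrfs1 was 0.45 ± 0.07 (SE; limma adjusted p = 0.0014), the largest of the 34 genes. With siAirn-001.1 it was 0.46 ± 0.08 (limma adjusted p = 0.0031), and siAirn-001.2 gave 0.43 ± 0.08 (limma adjusted p = 0.018).

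Uqcrh encodes the hinge protein, a small acidic subunit near the site where cytochrome c docks. It was at 12.86, 12.77, 12.62 and 12.66 in siAirn-001.1 and at 12.75, 12.84, 12.84 and 12.87 in siAirn-001.2, against 12.47 at the lowest, 12.55 at the median and 12.60 at the highest in siScramble. No siAirn array overlapped the siScramble arrays, although siAirn-001.1 array 3 came close to the highest of them. The mean change was 0.24 ± 0.05 (SE; limma adjusted p = 0.0167).

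Uqcr11 and Uqcr10 encode small accessory subunits of the complex. Uqcr11 was at 9.62, 9.87, 9.73 and 9.90 in siAirn-001.1 and at 10.05, 9.71, 9.59 and 9.99 in siAirn-001.2, against a lowest of 9.41, a median of 9.52 and a highest of 9.64 in siScramble. In each siAirn group 1 array, array 1 of siAirn-001.1 and array 3 of siAirn-001.2, lay within the siScramble range. Its mean change was 0.28 ± 0.08 (SE; limma adjusted p = 0.0474). Uqcr10 was at 10.92, 10.86, 10.89 and 11.11 in siAirn-001.1 and at 11.01, 10.83, 10.50 and 10.93 in siAirn-001.2, against a lowest of 10.50, a median of 10.56 and a highest of 10.77 in siScramble. Array 3 of siAirn-001.2 was level with the lowest siScramble arrays, and the other 7 siAirn arrays lay above the highest. Uqcr10 was called with siAirn-001.1 (0.34 ± 0.09, limma adjusted p = 0.0448) and not in the mean (0.27 ± 0.08, limma adjusted p = 0.0629); without siAirn-001.2 array 3 its mean change was 0.33 and passed (limma adjusted p = 0.0122).

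Uqcrc1 encodes a large core protein that faces the mitochondrial matrix. It was at 11.89, 12.00, 12.09 and 12.20 in siAirn-001.1 and at 12.06, 12.01, 12.13 and 12.15 in siAirn-001.2, against a lowest of 11.93, a median of 12.02 and a highest of 12.05 in siScramble. The groups overlapped, and the mean change was 0.07 ± 0.05 (SE; limma adjusted p = 0.714). Uqcrq, which encodes a small subunit next to cytochrome b, had a mean change of 0.18 ± 0.07 (SE; limma adjusted p = 0.198).

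Complex IV, cytochrome c oxidase, had 2 of 9 genes called in the mean of both reagents. Cox5b encodes a zinc-binding subunit on the matrix side. Its log2 level was 13.13, 13.14, 13.11 and 13.15 in siAirn-001.1 arrays 1 to 4 and 13.14, 13.10, 13.15 and 13.22 in siAirn-001.2 arrays 1 to 4, against a lowest of 12.71, a median of 12.85 and a highest of 12.97 in siScramble. The siAirn arrays lay close together and all above the siScramble arrays, which were more spread. The mean change was 0.29 ± 0.05 (SE; limma adjusted p = 0.0045). Cox5b was called with siAirn-001.1 (0.28 ± 0.06, limma adjusted p = 0.0125) and also with siAirn-001.2 (0.30 ± 0.06, limma adjusted p = 0.0313).

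Cox6b1 encodes a subunit on the intermembrane side that joins the monomers of the oxidase. It was at 12.01, 11.93, 11.81 and 11.71 in siAirn-001.1 and at 12.05, 11.97, 12.03 and 12.16 in siAirn-001.2, against a lowest of 11.49, a median of 11.64 and a highest of 11.83 in siScramble. All siAirn-001.2 arrays lay above the siScramble arrays, whereas siAirn-001.1 arrays 3 and 4 lay within their range. The mean change was 0.31 ± 0.06 (SE; limma adjusted p = 0.0136); it was 0.40 ± 0.08 with siAirn-001.2 (limma adjusted p = 0.0215) and 0.21 ± 0.08 with siAirn-001.1 (limma adjusted p = 0.127).

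Cox7a2l encodes a protein that links complexes III and IV in supercomplexes, and its cluster too lies among genes of another chromosome. It was at 9.57, 9.47, 9.06 and 9.10 in siAirn-001.1 and at 9.31, 9.43, 8.91 and 9.07 in siAirn-001.2, against a lowest of 8.74, a median of 8.79 and a highest of 9.20 in siScramble. Arrays 1 and 2 of both siAirn groups lay above every siScramble array, and arrays 3 and 4 lay within the siScramble range. Its mean change, 0.36 ± 0.11 (SE), was the second largest of the 34 and was not called (limma adjusted p = 0.0733), but it passed with array weights (0.40, limma adjusted p = 0.0126) and without siAirn-001.1 array 3 (0.40, limma adjusted p = 0.0475), siAirn-001.2 array 3 (0.40, limma adjusted p = 0.043) or siScramble array 5 (0.42, limma adjusted p = 0.0387).

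The other complex IV genes had smaller mean changes. Cox5a, Cox6c and Cox7b, which encode subunits used in most tissues, had mean changes of 0.06, 0.08 and 0.11, and none was called. Cox6b2, Cox7b2 and Cox8c encode forms known from testis, and no array held more than 7.99 for any of them. Cox6b2 was at 7.47, 7.50, 7.68 and 7.99 in siAirn-001.1 and at 7.36, 7.36, 7.50 and 7.60 in siAirn-001.2, against a lowest of 7.40, a median of 7.62 and a highest of 7.72 in siScramble. Its groups overlapped, and its mean change of -0.04 ± 0.08 (SE; limma adjusted p = 0.939) was the lowest of the 34 genes.

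Complex V, the ATP synthase, had 3 of 15 genes called, all in its membrane part. Of the 5 genes of the F1 part, which carries the catalytic sites, 0 were called and the median mean change was 0.04. Among the 8 genes of the membrane part and stalk, 3 were called, all 8 changes were above 0 and the median was 0.12. The division into these parts follows known structure but was made after the values were seen. Atp5s and Atp5sl are included by their symbols, although neither encodes a subunit; their mean changes were 0.05 and 0.09.

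Atp5b encodes the catalytic beta subunit. Its log2 level was 13.62, 13.61, 13.68 and 13.70 in siAirn-001.1 arrays 1 to 4 and 13.66, 13.56, 13.73 and 13.76 in siAirn-001.2 arrays 1 to 4, against a lowest of 13.61, a median of 13.71 and a highest of 13.77 in siScramble. The groups overlapped almost wholly, with a mean change of -0.03 ± 0.05 (SE; limma adjusted p = 0.898). Atp5a1, which encodes the alpha subunit of the same catalytic ring, had a mean change of 0.01 ± 0.05 (SE; limma adjusted p = 0.972). Atp5e, which encodes the small epsilon subunit, had the largest change of the F1 part, 0.24 ± 0.07 (SE; limma adjusted p = 0.0701), with 6 of 8 siAirn arrays above the highest siScramble array.

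Atp5g1 is 1 of 3 genes for the c subunit that forms the rotating ring of the membrane part. It was at 13.08, 13.11, 13.13 and 13.18 in siAirn-001.1 and at 13.18, 13.08, 13.18 and 13.19 in siAirn-001.2, against a lowest of 12.86, a median of 12.95 and a highest of 13.02 in siScramble. Every siAirn array lay above every siScramble array, and the mean change was 0.21 ± 0.05 (SE; limma adjusted p = 0.0213). Atp5g2 and Atp5g3, which encode the same mature protein, had mean changes of 0.08 and 0.07 and were not called (limma adjusted p = 0.587 and 0.694).

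Atp5k and Atp5l encode subunits e and g, small membrane proteins at the interface between paired synthases. Atp5k was at 9.88, 9.76, 9.77 and 9.80 in siAirn-001.1 and at 10.04, 10.02, 9.91 and 10.06 in siAirn-001.2, against a lowest of 9.53, a median of 9.71 and a highest of 9.81 in siScramble. The siAirn-001.2 arrays all lay above siScramble, whereas 3 of the siAirn-001.1 arrays lay within its range. The mean change was 0.22 ± 0.06 (SE; limma adjusted p = 0.0371); it was 0.33 ± 0.07 with siAirn-001.2 (limma adjusted p = 0.0346) and 0.12 ± 0.07 with siAirn-001.1 (limma adjusted p = 0.399). Atp5l was at 10.69, 10.46, 10.33 and 10.34 in siAirn-001.1 and at 10.50, 10.37, 10.23 and 10.48 in siAirn-001.2, against a lowest of 9.95, a median of 10.09 and a highest of 10.35 in siScramble. Its groups overlapped through the highest siScramble arrays, 5 and 6. The mean change was 0.29 ± 0.08 (SE; limma adjusted p = 0.04), and of the reagents siAirn-001.1 passed alone (0.32 ± 0.09, limma adjusted p = 0.0478). Its cluster is 1 of the 4 that lie among genes of another chromosome.

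**Figure D2:**
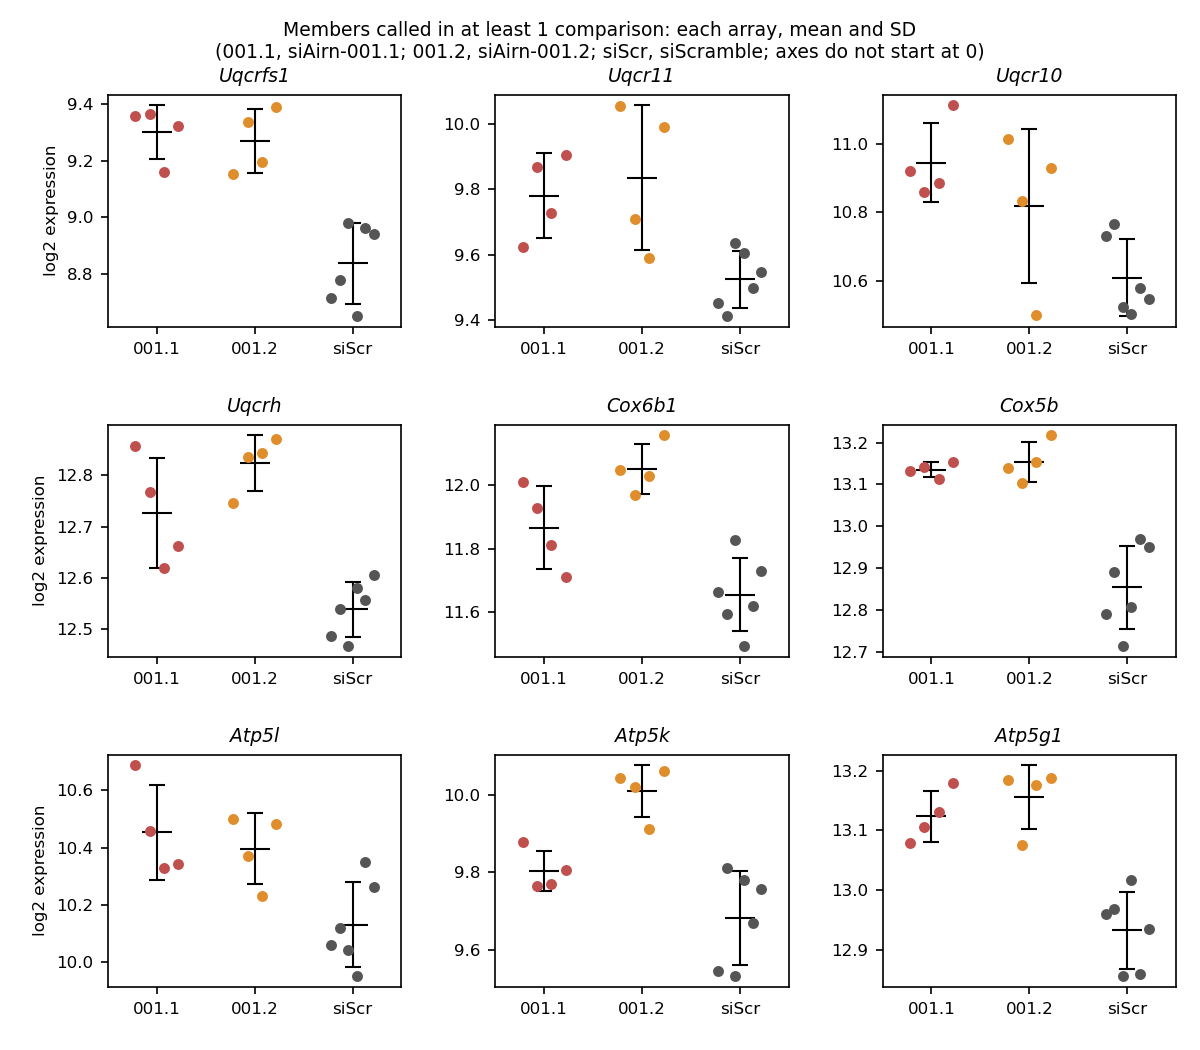
Each panel shows the log2 expression of 1 of the 9 genes called in at least 1 contrast, with a point per array for siAirn-001.1 (4 arrays), siAirn-001.2 (4 arrays) and siScramble (6 arrays); horizontal bars are means and error bars SDs. In Uqcrfs1, Uqcrh, Cox5b and Atp5g1 all siAirn points lie above all siScramble points, and in the other 5 genes the groups overlap.

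Set against siScramble one by one, the reagents each called a small number of the 34 genes. With siAirn-001.1, 4 rose (Uqcrfs1, Uqcr10, Cox5b and Atp5l) and 0 fell, where 3.43% of all genes were called higher and 2.53% lower. With siAirn-001.2, 5 rose (Uqcrfs1, Uqcrh, Cox5b, Cox6b1 and Atp5k) and 0 fell, where 0.48% of all genes were called higher and 0.47% lower. Both contrasts use the same 6 siScramble arrays, so their values are not independent. Cox5b and Uqcrfs1 were called in both, 9 genes were called in at least 1 contrast with siScramble, and 25 in none. Among all genes, those called higher in both can be at most the 0.48% called higher with siAirn-001.2. The share of all genes called in at least 1 contrast was not counted. Over the 34 genes siAirn-001.1 gave a median change of 0.12 and siAirn-001.2 one of 0.09, and 13 (38.2%) had an unadjusted p under 0.05 in limma with each reagent, against 17.9% of all genes for siAirn-001.1 and 11.3% for siAirn-001.2. The count with siAirn-001.1 was 2 to 4 with 1 array left out: 2 without siAirn-001.1 array 1, 2 or 4, siAirn-001.2 array 2 or 4, or siScramble array 1, 3 or 4. The count with siAirn-001.2 was 0 without its own array 3 or array 4, and 1 without siScramble array 2 or 4. It was 2 without siScramble array 1 or 3, and 3 without siAirn-001.2 array 1 or 2 or siScramble array 5.

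**Figure D3:**
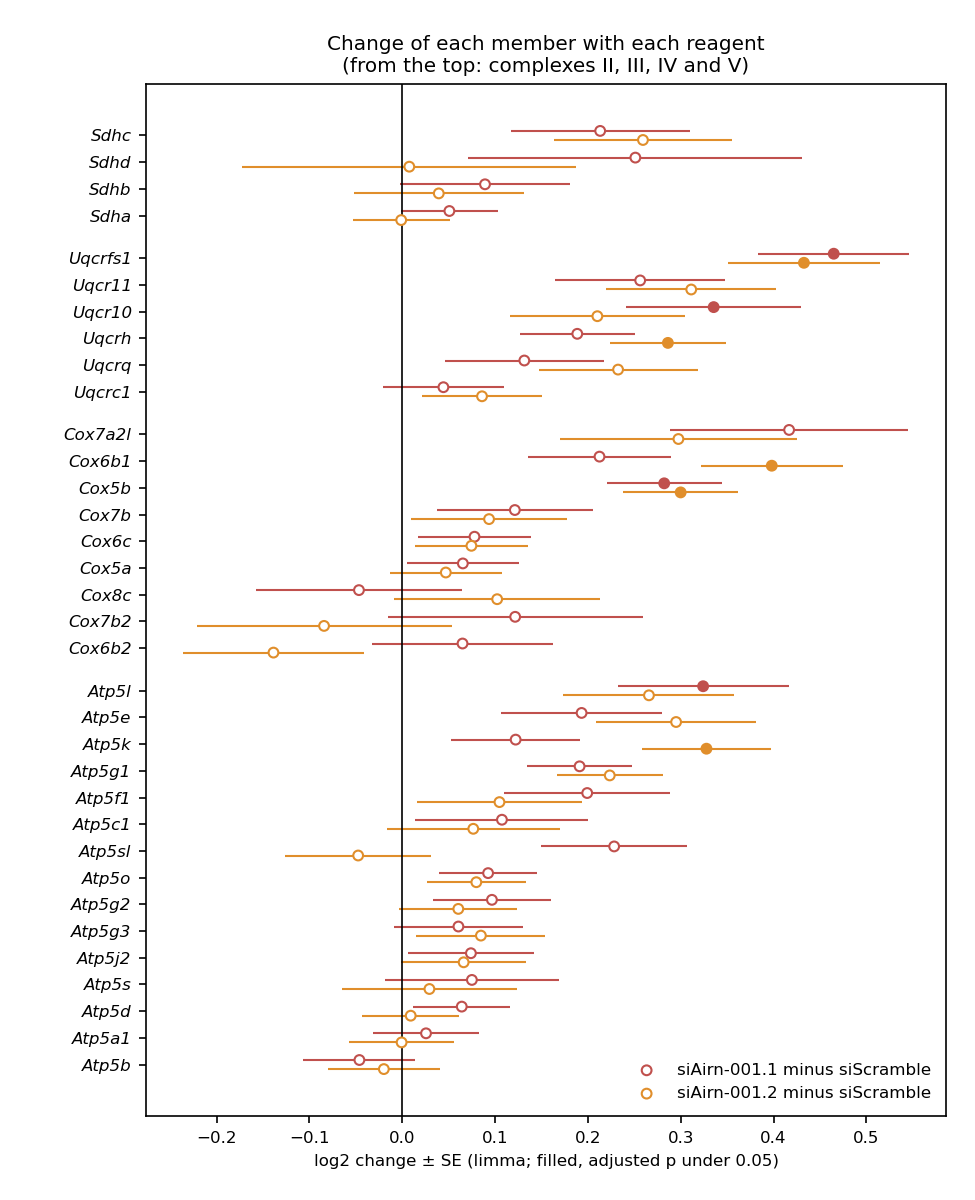
Points are the log2 changes of the 34 genes, siAirn-001.1 minus siScramble above siAirn-001.2 minus siScramble for each gene, with SE bars from limma, and filled points have an adjusted p under 0.05. Cox5b and Uqcrfs1 are filled for both reagents, and most of the open points also lie to the right of 0; both reagents are set against the same siScramble arrays.

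The difference between the reagents was tested directly. Of the 34 genes, 0 were called in siAirn-001.2 minus siAirn-001.1 by limma, where 0.332% of all genes were called higher and 0.674% lower. At an unadjusted p under 0.05 there were 3 of the 34 (8.82%), a smaller share than the 13.4% of all genes. Those 3 were Atp5sl (-0.28, 95% interval -0.46 to -0.09), Atp5k (0.21, 0.05 to 0.37) and Cox6b1 (0.19, 0.01 to 0.36), with limma adjusted p-values of 0.146, 0.224 and 0.346. For Uqcrfs1 the difference was -0.03 with a 95% interval of -0.22 to 0.16, and for Cox5b it was 0.02 with an interval of -0.13 to 0.16. Over the 34 genes the intervals reached from -0.66, in Sdhd, to 0.41, in Cox8c. Since same-numbered arrays of the reagents pair, the difference was also fitted with the replicate block among the 8 siAirn arrays. There 0 of the 34 were called by limma, where 0.891% of all genes were called. An unadjusted p under 0.05 in limma was met by 4 (11.8%), against 16.8% of all genes. Within pairs 1 to 4 Atp5k was higher with siAirn-001.2 in all 4 (0.17, 0.26, 0.14 and 0.26), and Atp5sl was lower in all 4 (-0.50, -0.16, -0.30 and -0.15). With the block their limma adjusted p-values were 0.169 and 0.15. The blocked intervals of the 34 genes reached from -0.50, in Sdhd, to 0.40, in Cox8c.

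Averaged over the 34 genes, every siAirn array except siAirn-001.2 array 3 lay above all siScramble arrays. The mean of the values relative to the siScramble mean was 0.20, 0.17, 0.09 and 0.15 in siAirn-001.1 arrays 1 to 4 and 0.13, 0.17, 0.06 and 0.17 in siAirn-001.2 arrays 1 to 4. The siScramble arrays lay between -0.04 and 0.06, with the highest value in siScramble array 5, which was level with siAirn-001.2 array 3. By complex, complex III was above all siScramble arrays in all 8 siAirn arrays, from 0.16 to 0.30 in siAirn-001.1 and from 0.12 to 0.34 in siAirn-001.2, against -0.05 to 0.04 in siScramble. Complex II stood at 0.23 in 3 arrays, the first and second of siAirn-001.1 and the second of siAirn-001.2, was near 0 in siAirn-001.2 array 1 (-0.01), and reached 0.14 in siScramble array 5. The lowest mean of the 34 genes in each siAirn group was in array 3, which held 48.4% of the siScramble Airn signal for siAirn-001.1 and 41.4% for siAirn-001.2. Array 4, where Airn was as low (48.3% for siAirn-001.1 and 45.5% for siAirn-001.2), had means of 0.15 and 0.17, and arrays 1 and 2, where Airn was at 80.5% to 96.2%, had means of 0.13 to 0.20; no relation between Airn and these genes was tested. The 8 called genes averaged 0.31, 0.28, 0.19 and 0.24 in siAirn-001.1 and 0.34, 0.28, 0.25 and 0.40 in siAirn-001.2, against -0.06 to 0.07 in siScramble, which describes the genes the contrast selected.

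**Figure D4:**
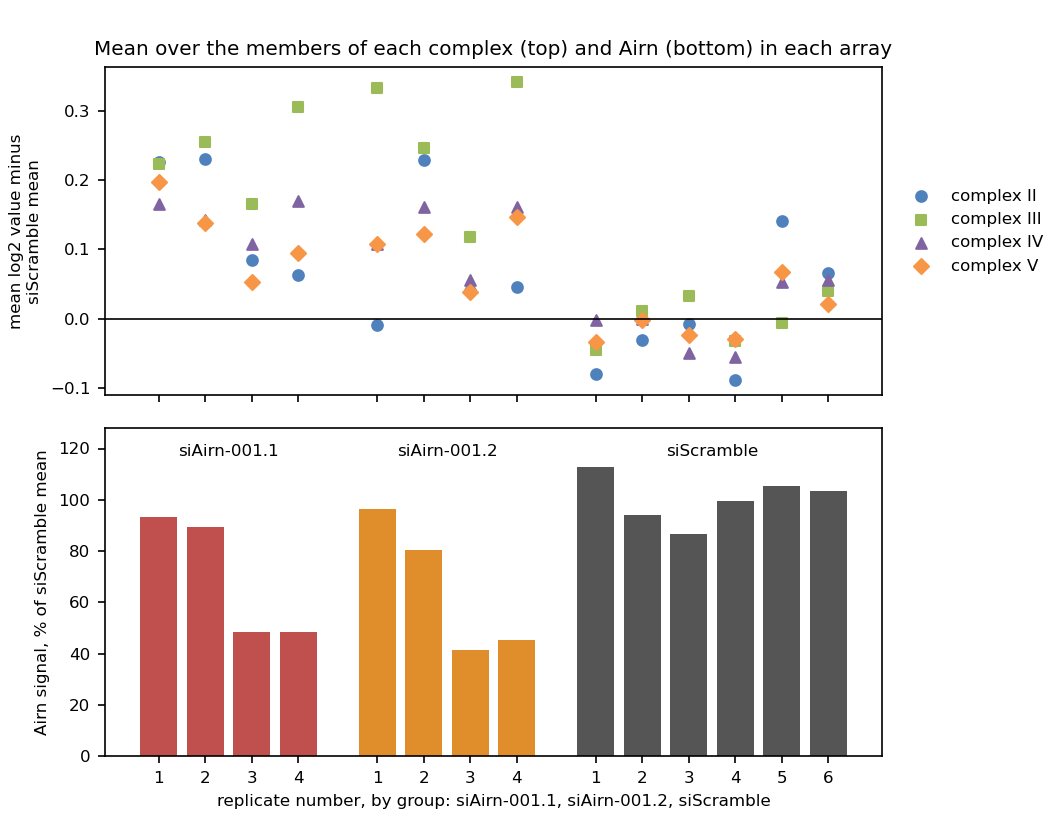
The upper panel shows, for each of the 14 arrays, the mean over the genes of each complex of the log2 value minus the siScramble mean; the lower panel shows the Airn signal of the same array as a percentage of the siScramble mean. Complex III lies between 0.12 and 0.34 in the siAirn arrays and below 0.05 in siScramble, and Airn is within the siScramble range in arrays 1 and 2 of siAirn-001.1 and array 1 of siAirn-001.2.

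Genes that work with these complexes were counted in the same way. In the mean contrast 4.13% of all genes were called. Among 8 partners on the table that the symbol rule does not take, such as Cyc1 and Cox4i1, which encode cytochrome c1 and the largest nuclear subunit of complex IV, 0 were called in the mean contrast and 2 had an unadjusted p under 0.05 in limma, a measure that 15.8% of all genes met. Cox4i1 had a mean change of 0.21 (limma adjusted p = 0.18). Of the assembly factors, 22 were on the table (2 for complex II, 4 for complex III, 13 for complex IV and 3 for complex V). In the mean contrast 0 of them were called by limma and 5 had an unadjusted p under 0.05. Higd2a, which helps join complex IV to supercomplexes, was nearest (0.19, limma adjusted p = 0.0524) and was called with siAirn-001.1 (0.23, limma adjusted p = 0.038). The 14 genes of the citric acid cycle and the 15 of the outer membrane and protein import also gave 0 calls in the mean contrast, with 3 and 2 at an unadjusted p under 0.05 in limma and medians of 0.07 and -0.00. Of 6 respiratory genes of mitochondrial DNA looked for, 0 were found on the table under the symbols used, so they were not analysed.

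Among 16 regulators of respiratory genes on the table, 1 fell and 0 rose in the mean contrast, where 1.97% of all genes were called lower and 2.15% higher. The gene that fell was Gabpb1, which encodes the beta chain of GABP: it ranged from 9.19 to 9.42 in siAirn-001.1, from 9.27 to 9.49 in siAirn-001.2 and from 9.46 to 9.60 in siScramble, a change of -0.22 ± 0.05 (SE; limma adjusted p = 0.033). Gabpa, the DNA-binding chain, had a change of 0.08 (limma adjusted p = 0.699), Nrf1 -0.08 (limma adjusted p = 0.65), Yy1 0.03 (limma adjusted p = 0.927) and Esrra 0.16 (limma adjusted p = 0.18). Ppargc1a, the coactivator known for driving mitochondrial biogenesis, had a change of 0.05 (limma adjusted p = 0.941).

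The 6 isoform genes outside the rule gave 3 calls in the mean contrast, all higher, where 2.15% of all genes were called higher. Cox6a2 and Cox7a1, the forms of heart and skeletal muscle, rose by 0.88 ± 0.20 and 0.60 ± 0.13 (SE; limma adjusted p = 0.0194 and 0.0132), and Cox6a1, the form of most other tissues, rose by 0.28 ± 0.07 (SE; limma adjusted p = 0.0364). With siAirn-001.1 the same 3 were called, with changes of 1.13, 0.70 and 0.33, and with siAirn-001.2 none of the 6 was (0.63, 0.51 and 0.23, lowest limma adjusted p = 0.131). Cox8b, the other muscle form, was not called in any contrast with siScramble. Its change was 0.63 ± 0.49 for siAirn-001.1 and -0.13 ± 0.49 (SE) for siAirn-001.2, whose arrays ran from 7.61 to 10.62. Tnni3, cardiac troponin I, was the 1 heart marker of 9 called in the mean contrast (0.33 ± 0.06, SE; limma adjusted p = 0.0064). Of these 9 markers 6 had a mean change above 0. With siAirn-001.1 all 9 did (median 0.21), and with siAirn-001.2 only 4 did (median -0.04). Of 4 endothelial markers 1, Kdr, rose (0.39, limma adjusted p = 0.0336), with changes of 0.71 for siAirn-001.1 and 0.07 for siAirn-001.2, while Tek was at -0.32, Cdh5 at -0.03 and Pecam1 at 0.02 in the mean contrast. The 6 fibroblast markers all had mean changes below 0, down to -0.86 in Postn (limma adjusted p = 0.22), and 0 were called by limma, with 2 at an unadjusted p under 0.05. The part of any shift in cell state in the changes of the 34 genes was not tested, and in bulk RNA fewer cells of a type and less RNA per cell cannot be told apart.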

How the data were processed

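Total RNA from HL-1 cells was labelled and hybridised to Affymetrix arrays, 1 sample per array. The authors deposited log2 expression values for 14 arrays and, in the same table, their own test of siAirn against siScramble as a log2 difference with p-values before and after adjustment. RMA and limma are the tools named, without versions or roles, in the submitters' processing notes. RMA is meant to equalise the arrays' distributions, so a shift shared by most genes can be lost, and it damps differences between dim probes. The deposited values were not fully equal: array medians over all genes ran from 7.445 to 7.545 and SDs from 2.091 to 2.190. Mean array medians were 7.468 in siAirn-001.1, 7.491 in siAirn-001.2 and 7.489 in siScramble. Quantile normalisation of these values took the median change of the genes followed here from 0.091 to 0.100 in the mean contrast. It took Atp5g1 from 0.207 to 0.174, which was still called. Neither the labels nor the files name the array model or its annotation.

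The deposited log2 values were used as they are. A linear model with 3 group means was fitted in R 4.3.3 by limma 3.58.1 (lmFit, then eBayes; 11 residual and 5.31 prior degrees of freedom) over all 20193 genes, with 4 two-sided contrasts and Benjamini-Hochberg adjustment in each. The fit was tested on simulated data in which arrays were independent and the changes were larger than those called here. That test therefore does not cover arrays that deviate together or changes as small as these. Arrays carry no read depth, and their number limits the precision. The members and lists of genes were chosen with earlier results of these data known. Array values are given for every called gene and for the highest and lowest mean change of each complex; Sdhd was added after its values were seen.

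Same-numbered arrays of siAirn-001.1 and siAirn-001.2 deviated together from their group means (correlation across genes 0.32, 0.53, 0.36 and 0.43 for numbers 1 to 4, each highest with its own number), so the labels' replicate numbers pair these groups. The numbers did not pair siAirn with siScramble arrays (-0.43 to 0.23 for the same number). Among siScramble arrays, array 5 correlated highest with array 1 of both siAirn groups, array 6 with array 2 and array 4 with array 3. For array 4 the highest was siScramble array 1 in siAirn-001.1 and siScramble array 2 in siAirn-001.2. Whether these arrays share a culture or a day was not tested. Alternatives were a replicate block, centring, quantile normalisation, array weights, a filter on dim genes, another variance prior, other groupings, the authors' adjusted p, and leaving out arrays. Of the 34 symbols, 31 were current names and 3 older ones in RefSeq (GRCm38.p6).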

Additional observations from a re-analysis of the deposited data

Results flagged for a closer look

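In 7 of 105 groups of arrays examined, 1 array of a member lay far from the others of its group by Dixon's test; chance gives about 1 in 20. In siAirn-001.2, array 1 was low for Atp5a1 (12.69, the others 12.83 to 12.85) and for Sdha (11.77, the others 11.83 to 11.84). Array 2 of the same group was low for Atp5g1 (13.08, the others 13.18 to 13.19) and high for Sdhd (11.83, the others 11.03 to 11.07). Among siScramble arrays, array 3 was low for Cox6c (13.32, the others 13.51 to 13.57) and for Cox7b (12.23, the others 12.61 to 12.76), and array 5 was high for Atp5s (8.95, the others 8.48 to 8.63). Of these genes Atp5g1 was the 1 called.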

How the results depend on the processing

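The number of arrays, 4 to 6 a group, limits what could be called. The count of 8 genes in the mean of both reagents was 6 to 11 under other settings of the same arrays and 4 by the adjusted p of the authors' deposited table (Atp5g1, Cox5b, Uqcrfs1 and Uqcrh). With 1 array left out it was 4 to 11, with siAirn-001.1 it was 2 to 4, with siAirn-001.2 it was 0 to 5, and between the reagents it was 0 in every fit. With the replicate block the counts were 8, 6, 8 and 0 in the same order, so that only the 5 of siAirn-001.2 moved beyond 1.5 times; it was also 3 with only the 2 groups compared. The block took the median change of the 34 genes to 0.15 (0.08 to 0.12 with 1 array left out), took Cox6b2 to 0.0072 (limma adjusted p = 0.98), a reversed sign, called Cox7a2l and Sdhc, and lost Atp5g1 and Uqcr11. Since the replicate numbers did not pair siAirn with siScramble arrays, calls gained with this block do not make a change firmer. Among the 8 siAirn arrays the block gave 0 calls in the 34 genes, where 0.891% of all genes were called. Airn passed with the block (-0.61, limma adjusted p = 0.0169), with array weights (-0.68, limma adjusted p = 0.0152), and without array 1 of siAirn-001.1 or siAirn-001.2, and ranged from -0.75 to -0.55 with 1 array left out. Without siScramble arrays 5 and 6, chosen after seeing the data, the counts were 7, 5 and 6. That pair held the controls most like siAirn arrays 1 and 2, so differences between arrays enter these counts. Replicate numbers 5 and 6 occur only in siScramble, so with the block these arrays add nothing to a change. The log2 changes with the block are therefore those without siScramble arrays 5 and 6, and these alternatives are not separate checks. The cause of the other differences was not tested.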
